A study of Mus musculus with 24 samples.

Results

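The p53 target genes described here are 9 genes, Cdkn1a, Ccng1, Mdm2, Bax, Phlda3, Gdf15, Trp53inp1, Sesn1 and Eda2r, taken by symbol from a mouse lung expression table of 78298 genes. Their Ensembl gene identifiers in the table are ENSMUSG00000023067, ENSMUSG00000020326, ENSMUSG00000020184, ENSMUSG00000003873, ENSMUSG00000041801, ENSMUSG00000038508, ENSMUSG00000028211, ENSMUSG00000038332 and ENSMUSG00000034457, in that order. All 9 symbols were found, each once, and all 9 passed the filter on low values that left 17823 genes for testing. Their levels were read in 24 lung libraries from wild type C57BL/6 mice aged 7 weeks, which the labels call biological replicates. Saline lungs (4 libraries) received no extract and, by the written protocol, sterile saline into the trachea on day 29. LPS lungs (5 libraries) received lipopolysaccharide, the outer membrane component of Gram-negative bacteria, at 5 mg/kg by the same route and no extract. Low, mid and high dose lungs (5 libraries each) drank an aqueous extract of Artemisia argyi, the Chinese mugwort (AEAA), for 28 days and then received the same LPS. The low dose was 0.5 mg/mL, the mid dose 1 mg/mL and the high dose 1.5 mg/mL. All lungs were taken 8 h after the instillation, and no lungs with extract but without LPS are in the design.

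p53, encoded by Trp53, is a transcription factor that is held low in resting cells by the ubiquitin ligase Mdm2 and accumulates after DNA damage and other stress. It then switches on genes that stop the cell cycle, repair or survey damage, or set off cell death, and among them Mdm2 itself, which closes a feedback loop. In lung tissue several of these genes, Cdkn1a and Gdf15 above all, are also known to answer inflammatory and metabolic stress through other factors, so their RNA level alone is not a measure of p53 activity.

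RefSeq promoter windows (build GRCm38.p6, 250 bases before to 50 after a start) matched 8 of the 9 genes, and Trp53inp1 had no entry. The p53 half-site consensus, a 10-letter motif searched on both strands, was present in 5 of the 11 windows of these genes, against 8.36% of 32851 windows of the same length. Matches lay in the windows of Cdkn1a, Ccng1, Mdm2, Bax and Sesn1, and Cdkn1a held 2 of them. The table gives Cdkn1a and Sesn1 2 starts each, and in both genes the window of the other start holds no match. The stretches below, each upstream of the start whose window holds it, are shown because they hold a match to the half-site consensus. Only the half-site was searched, so a lone match is not a full p53 site. Capitals mark the half-site match. The other Sesn1 start lies upstream of the printed Sesn1 stretch, and the other Cdkn1a start downstream of the printed Cdkn1a stretch.
Cdkn1a, chr17:29090881-29090962, + strand: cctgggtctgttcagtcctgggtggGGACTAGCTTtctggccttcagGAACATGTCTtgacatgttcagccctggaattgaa
Ccng1, chr11:40755437-40755496, - strand: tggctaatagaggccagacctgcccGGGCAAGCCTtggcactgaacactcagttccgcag
Mdm2, chr10:117710910-117710969, - strand: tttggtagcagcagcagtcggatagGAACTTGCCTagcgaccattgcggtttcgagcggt
Bax, chr7:45467065-45467124, - strand: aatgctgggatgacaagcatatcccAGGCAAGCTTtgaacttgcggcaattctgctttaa
Sesn1, chr10:41887241-41887300, + strand: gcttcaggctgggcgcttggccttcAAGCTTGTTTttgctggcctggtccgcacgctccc
The 2 Cdkn1a matches lay at bases -73 to -64 and -51 to -42, counted from the nearer of its 2 starts at +1. Those of Ccng1, Mdm2, Bax and Sesn1 lay between bases -201 and -164 of the start whose window holds them. The stress motif TGATGNAA, read by ATF4 together with a C/EBP partner, was in 0 of the 11 windows (3.97% of all windows), and the E-box CACGTG was in 3, those of Gdf15, Bax and Eda2r (7.15%). Both were searched on both strands, and no match of one motif overlapped a match of another. A match describes letters, not binding.

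The deposited unit was TPM, a transcript abundance that is scaled by transcript length and relative to all transcripts of a library. Read depth is unknown, so the spread between libraries is the only measure of error. The club cell secretoglobin Scgb1a1 took 23.2 to 35.5% of all TPM in saline lungs and 2.51 to 8.8% in challenged lungs, and over all genes tested the median log2 change from saline to LPS was 0.55. Each change is therefore given on the deposited values and again on values divided by a median-of-ratios factor ("scaled"), which put that median at 0.00. Changes are log2 values of TPM + 1, tested with limma and adjusted over all genes by Benjamini-Hochberg. In whole lung, fewer cells of a type and less RNA per cell cannot be told apart. Xist was at 25.82 to 95.49 TPM in all libraries and no Y-linked gene read exceeded 0.15 TPM, which goes against the male sex in the labels. The sample records of the saline lungs also carry the LPS entry, against the protocol. Their Cxcl2 was at 0.06 to 0.27 TPM. That level cannot settle the point, because the 7 challenged libraries named next held 0.09 to 1.37 TPM. Cxcl2, a neutrophil chemokine, was under 10 TPM in 7 of the 20 challenged libraries (LPS 2 and 4, low dose 1, mid dose 1 and 4, high dose 1 and 4), and between 45.12 and 454.09 TPM in the other 13. Skeletal muscle actin Acta1 exceeded 100 TPM in LPS 1, LPS 3 and low dose 5. Calls that change without the 7 or the 3 libraries, sets chosen after the data were seen, are given beside the results they touch.

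**Figure D1:**
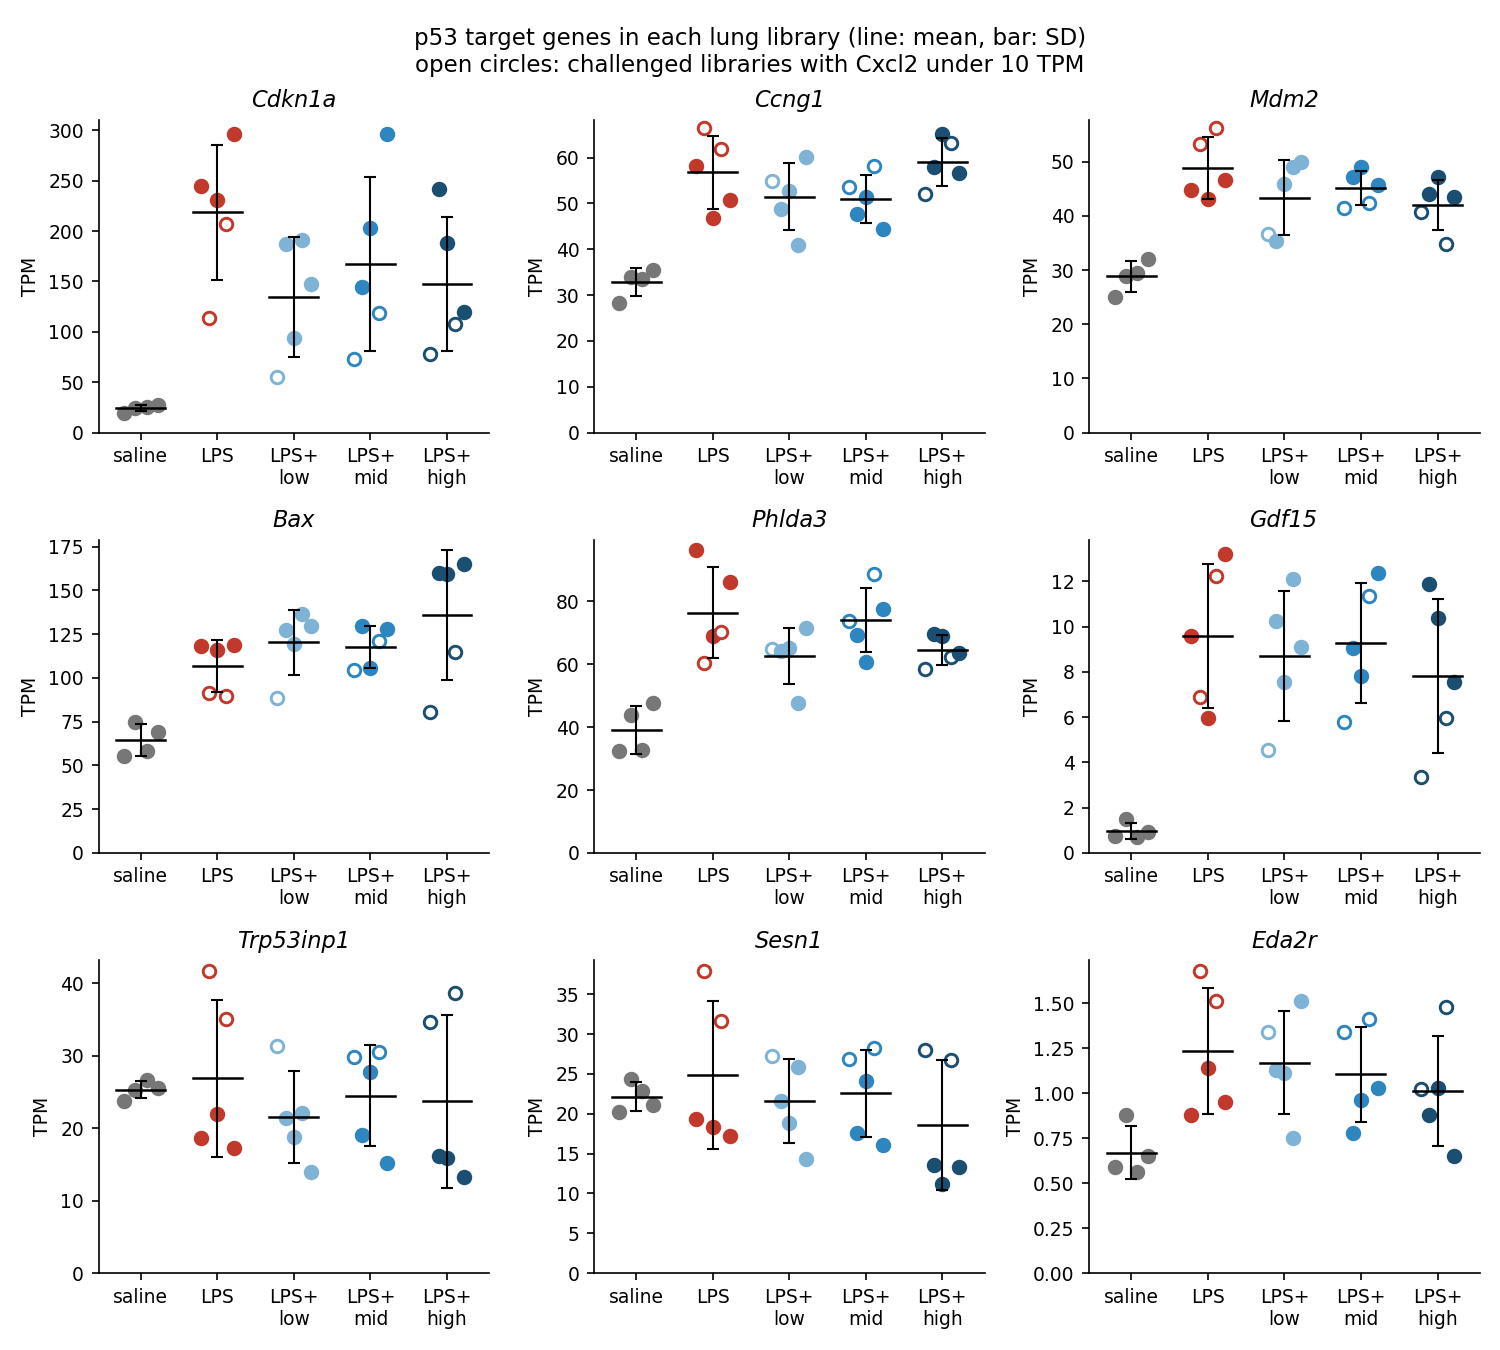
TPM (vertical axes, from 0) of the 9 genes in each library, by group: saline (n = 4), LPS and LPS with the low, mid or high extract dose (n = 5 each). Circles are libraries, lines are means and bars are SD; open circles are the 7 challenged libraries with Cxcl2 under 10 TPM. Cdkn1a and Gdf15 in every challenged library stand above every saline library, while Sesn1 and Trp53inp1 are highest in the open circles.

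LPS against saline asks what the challenge did to the set. Cdkn1a and Gdf15 rose, with ratios of mean TPM of 8.98 and 9.87, and passed on both scales. Ccng1, Mdm2, Bax, Phlda3 and Eda2r rose in deposited TPM by 0.41 to 0.95 on the log2 scale, where the median gene was at 0.55, and did not pass after scaling. Sesn1 and Trp53inp1 did not pass on either scale. In counts, 7 of 9 genes rose and 0 fell on the deposited values, where 56.2% of all genes tested were called higher and 1.86% lower. After scaling 2 of 9 rose and 0 fell, where 13.8% were called higher and 14.2% lower. The median change of the 9 was 0.74 as deposited and 0.09 scaled, beside 0.55 and 0.00 over all genes.

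Cdkn1a encodes p21, which inhibits cyclin-dependent kinases and halts the cell cycle. It was at 19.49, 24.82, 25.81 and 27.32 TPM in the saline lungs and at 245.11, 113.84, 230.85, 206.94 and 296.88 TPM in the LPS lungs. The lowest LPS library was thus far above the highest saline library. Mean TPM went from 24.4 ± 3.41 (SD, n = 4) to 219 ± 67.3 (SD, n = 5). The log2 change was 3.06 (SE 0.40), with a limma adjusted p of 1.6e-06, and 2.40 (SE 0.43) with an adjusted p of 0.00052 after scaling. The groups stayed apart after scaling too, which held for 14.2% of all genes in the higher direction. With any 1 library left out it stayed between 2.93 and 3.28, and without the challenged libraries of low Cxcl2 it was 3.35.

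Ccng1 encodes cyclin G1, a partner of protein phosphatase 2A that acts on Mdm2. Its level was 28.32, 33.95, 33.61 and 35.4 TPM in saline lungs and 58.23, 66.39, 46.82, 61.87 and 50.68 TPM in LPS lungs, so the groups did not overlap. Non-overlap in the higher direction held for 49.7% of all genes. Ccng1 rose by 0.77 (SE 0.12) as deposited, with a limma adjusted p of 8e-06. After scaling the change was 0.11 (95% interval -0.11 to 0.34, adjusted p 0.45) and the groups overlapped.

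Mdm2 encodes the ligase that marks p53 for degradation. Saline lungs held 24.99, 28.92, 29.41 and 32.06 TPM, and LPS lungs 44.83, 53.33, 43.17, 56.23 and 46.73 TPM, again without overlap. The increase was 0.74 (SE 0.11) as deposited, limma adjusted p 1.1e-05, and the scaled value was 0.09 (-0.16 to 0.33, adjusted p 0.6). Of the 5 LPS libraries, the 2 with low Cxcl2 held the most Mdm2 and the most Ccng1.

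Bax encodes the protein that opens pores in the outer mitochondrial membrane during apoptosis. It was measured at 55.65, 74.93, 58.48 and 69.14 TPM in saline lungs and at 118.43, 91.42, 115.79, 89.53 and 119.03 TPM in LPS lungs. Every LPS library was above every saline library, and the 2 LPS libraries of low Cxcl2 were the lowest of the 5. Bax rose by 0.72 (SE 0.18, limma adjusted p 0.0015) as deposited, and the scaled change was 0.05 (-0.39 to 0.50, adjusted p 0.87). Without the low-Cxcl2 libraries the scaled change was 0.27 (SE 0.09) and passed, with a limma adjusted p of 0.026.

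Phlda3 encodes a small lipid-binding protein that keeps the survival kinase Akt off the membrane. Its TPM was 32.55, 43.8, 32.8 and 47.59 in saline lungs and 96.33, 60.38, 68.99, 70.15 and 86.13 in LPS lungs, with no overlap. After Cdkn1a and Gdf15 it had the next highest deposited change of the 9, 0.95 (SE 0.14, limma adjusted p 9.1e-06). Scaled, it was 0.29 (-0.03 to 0.61, adjusted p 0.16), and without the low-Cxcl2 libraries 0.49 (SE 0.15) with a limma adjusted p of 0.016.

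Gdf15 encodes a secreted stress cytokine of the TGF-beta superfamily that acts on the brainstem receptor GFRAL. It was low in saline lungs, at 0.73, 1.5, 0.72 and 0.93 TPM, and stood at 9.57, 6.89, 5.97, 12.22 and 13.2 TPM in LPS lungs. No LPS library came near the saline range. Mean TPM went from 0.97 ± 0.366 (SD, n = 4) to 9.57 ± 3.18 (SD, n = 5). The log2 change of TPM + 1, which understates changes at such low levels, was 2.39 (SE 0.30, limma adjusted p 8.2e-07), and 1.96 (SE 0.31, adjusted p 0.00021) after scaling.

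Trp53inp1 encodes a nuclear and autophagosomal protein that promotes p53 phosphorylation and cell death. Saline lungs were tight at 23.8, 25.25, 26.7 and 25.55 TPM, whereas LPS lungs spread over 18.6, 41.68, 21.98, 35 and 17.25 TPM. Its deposited change was 0.00 (SE 0.31, limma adjusted p 1.0) and its scaled change -0.65 (-1.22 to -0.08, adjusted p 0.081). The 2 LPS libraries above the saline range were LPS 2 and LPS 4, those of low Cxcl2, and the other 3 lay below it. Without the low-Cxcl2 libraries of all groups the change was -0.38 (SE 0.17, limma adjusted p 0.072) as deposited and -0.96 (SE 0.18, adjusted p 0.00057) scaled, so that among these fits it passed as lower on the scaled values and not on the deposited ones. Leaving out LPS 2 alone also gave a scaled call (-0.79, adjusted p 0.035).

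Sesn1 encodes sestrin 1, a leucine-binding inhibitor of mTORC1 signalling. Its pattern was that of Trp53inp1, with 20.26, 24.32, 22.81 and 21.11 TPM in saline lungs and 19.37, 37.91, 18.35, 31.62 and 17.23 TPM in LPS lungs. Again LPS 2 and LPS 4 stood above the saline range and the other 3 below it. The change was 0.10 (SE 0.27, limma adjusted p 0.78) as deposited and -0.55 (-1.04 to -0.06, adjusted p 0.083) scaled. Left without the low-Cxcl2 libraries, it was -0.26 (adjusted p 0.19) and -0.83 (SE 0.17, limma adjusted p 0.00093) on the deposited and scaled values. Without LPS 2 alone its scaled change was -0.69 (adjusted p 0.031). In the scaled fit without the low-Cxcl2 libraries 4 of the 9 genes rose (Cdkn1a, Gdf15, Phlda3, Bax) and 2 fell (Trp53inp1, Sesn1), where 24.2% of all genes were called higher and 23.3% lower. The same fit on deposited values called 6 of the 9 higher (54.6% of all genes) and none lower.

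Eda2r, the receptor for the A2 form of ectodysplasin, was the least expressed alongside Gdf15 in saline lungs and reached 1 TPM in 13 of 24 libraries. It was listed at 0.59, 0.88, 0.56 and 0.65 TPM in saline lungs and at 0.88, 1.68, 1.14, 1.51 and 0.95 TPM in LPS lungs, which met at 0.88. The deposited change of 0.41 (SE 0.15) passed with a limma adjusted p of 0.021, and the scaled change of 0.09 (adjusted p 0.6) did not. The call was lost when saline 1, saline 3, LPS 2 or LPS 4 was left out (changes of 0.34 to 0.39, adjusted p 0.053 to 0.061), and also without the low-Cxcl2 libraries (0.25, adjusted p 0.14).

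**Figure D2:**
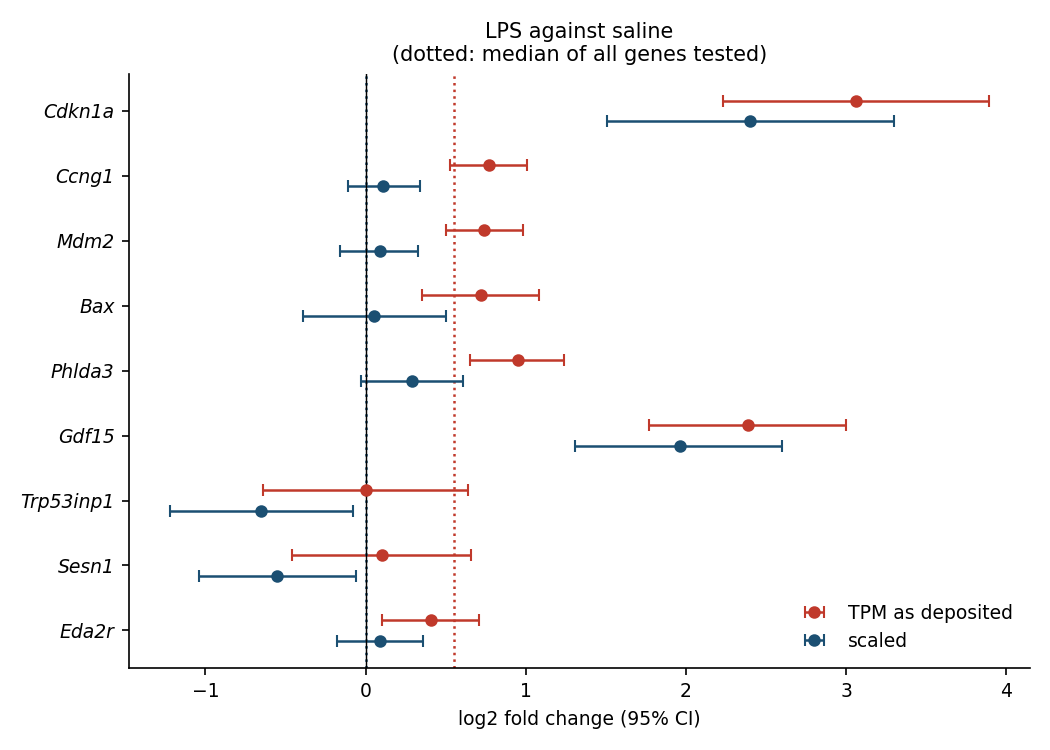
Log2 fold change of TPM + 1 from saline (n = 4) to LPS (n = 5) with its 95% interval (horizontal axis) for each gene (vertical axis), on deposited TPM (red) and scaled TPM (blue). Dotted lines are the medians of all genes tested, 0.55 and 0.00. Cdkn1a (3.06 and 2.40) and Gdf15 (2.39 and 1.96) lie clear of both medians, and Sesn1 and Trp53inp1 lie below them.

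Cell type markers also changed from saline to LPS, some lists upward and some downward. The summed TPM of 6 neutrophil markers was 114.07 to 179.18 in saline lungs and 526.94 to 12395.99 in LPS lungs, and 5 alveolar macrophage markers summed to 234.8 to 320.85 and 319.45 to 2142.04. No marker of either list was at 0 in all libraries of a group. The summed 5 endothelial markers were also higher, 560.84 to 842.02 against 1263 to 1855.03. After scaling, 5 of 6 neutrophil, 0 of 5 alveolar macrophage and 2 of 5 endothelial markers were called higher (13.8% of all genes). In the other direction, 4 club cell markers summed to 240794.53 to 366274.62 in saline and 33838.2 to 66824.9 in LPS lungs. All 4 were called lower on both scales (1.86% of all genes as deposited, 14.2% scaled). Of 4 cardiac muscle markers 1 was lower as deposited and 4 scaled. The part of these cells in the changes of Cdkn1a, Gdf15 and the others was not tested. Among the 13 challenged libraries of high Cxcl2, Cdkn1a spanned 93.94 to 296.88 TPM and Gdf15 5.97 to 13.2 TPM. In the 7 of low Cxcl2, where the inflammatory chemokine was near the saline level, Cdkn1a was still at 54.72 to 206.94 TPM and Gdf15 at 3.36 to 12.22 TPM, all above the saline ranges. These 7 were not at the saline level in deposited neutrophil markers. The lowest neutrophil sum was 526.94 in LPS, 1435.14 in low dose, 233.86 in mid dose and 199.09 TPM in high dose lungs. Saline lungs reached 179.18 TPM at most.

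The extract groups against LPS ask whether drinking the extract altered the challenged level. None of the 9 genes passed at any dose on deposited TPM, where the calls over all genes were 10.6% (low), 0% (mid) and 27.6% (high dose). Before adjustment, the lowest limma p of the 9 on deposited TPM was 0.054 at the low dose (Cdkn1a). It was 0.19 at the mid dose (Ccng1) and 0.063 at the high dose (Mdm2). After scaling, 0 of 9 passed under the low dose (2.29% of all genes) and 0 under the mid dose (0%). Under the high dose 1 passed, Ccng1 (8.94% in either direction, 5.67% higher). All 3 comparisons share the LPS libraries, so their values are given side by side and not as independent readings.

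Cdkn1a under the low dose was at 54.72, 187.4, 93.94, 191.03 and 147.35 TPM. Mid dose lungs held 72.74, 144.38, 203.1, 118.72 and 296.45 TPM, and high dose lungs 78.36, 242.13, 188.15, 108.28 and 119.99 TPM. All 3 dose groups overlapped the LPS lungs and all 3 stood above saline. The order of mean Cdkn1a was LPS (219 ± 67.3), mid (167 ± 86.3), high (147 ± 66.5), low (135 ± 59.5) and saline (24.4 ± 3.41 TPM), and of these neighbours only low and saline did not overlap. Against LPS, Cdkn1a differed by -0.77 (-1.55 to 0.02), -0.48 (-1.26 to 0.31) and -0.61 (-1.40 to 0.17) at the low, mid and high doses, with limma adjusted p of 0.18, 1.0 and 0.23. These intervals still hold a fall of more than 1 log2 unit as well as no change. In each dose group the lowest Cdkn1a was a library of low Cxcl2.

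Low dose lungs held 4.55, 10.25, 7.53, 12.1 and 9.11 TPM of Gdf15, mid dose lungs 5.79, 9.07, 7.82, 11.34 and 12.37 TPM, and high dose lungs 3.36, 11.86, 10.37, 5.97 and 7.53 TPM. Each dose group covered most of the LPS range. Its means were 9.57 (LPS), 9.28 (mid), 8.71 (low) and 7.82 TPM (high), and no neighbours in that order differed by as much as their SDs of 2.65 to 3.40 TPM. The changes against LPS were -0.13, -0.03 and -0.31 (limma adjusted p 0.79, 1.0 and 0.43).

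Ccng1 gave the one call after median-of-ratios scaling. Low dose lungs held 55, 48.73, 52.68, 40.93 and 60.2 TPM, mid dose lungs 53.55, 47.69, 51.46, 58.08 and 44.42 TPM, and high dose lungs 52.14, 58.02, 65.09, 63.12 and 56.56 TPM. On deposited TPM the high dose sat within the LPS range, with a mean of 59.0 ± 5.20 against 56.8 ± 8.01 TPM and a change of 0.06 (limma adjusted p 0.71). On scaled TPM its mean was 62.7 ± 8.27 against 48.1 ± 5.33 (SD, n = 5 each), the groups overlapped, and the change of 0.37 (SE 0.10, 0.16 to 0.59) had a limma adjusted p of 0.026. That call was lost without any one of LPS 3, LPS 5 and high dose 2, 3, 4 or 5 (changes of 0.32 to 0.36, adjusted p 0.056 to 0.077), and without the libraries of high Acta1 (0.36, adjusted p 0.06). Upper-quartile scaling lost it as well (0.34, adjusted p 0.051) and called Bax in its place (0.59, adjusted p 0.037). Ccng1 was the one gene of the 9 to pass the scaled test of any difference among LPS and the 3 doses, with a limma adjusted p of 0.024, where 7.2% of all genes passed. On deposited TPM 0 of 9 passed that test (22.2% of all genes).

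Mean Bax was 107 ± 15.0 TPM in LPS, 118 ± 12.1 in mid dose, 120 ± 18.7 in low dose and 136 ± 37.1 TPM in high dose lungs (SD, n = 5 each), and neighbours in that order overlapped. Low dose lungs held 88.73, 127.19, 119.26, 136.67 and 129.55 TPM, and mid dose lungs 104.28, 129.98, 105.92, 120.86 and 127.85 TPM. High dose lungs held 80.62, 160, 159.5, 114.71 and 165.08 TPM, of which the 3 highest exceeded every other library and the 2 lowest were those of low Cxcl2. The high dose change was 0.31 (SE 0.17, limma adjusted p 0.17) as deposited and 0.62 (SE 0.20, 0.20 to 1.04, adjusted p 0.057) scaled. It passed without high dose 1 (0.48, limma adjusted p 0.011, as deposited) and without the low-Cxcl2 libraries (0.45, SE 0.11, adjusted p 0.0061, as deposited, and 0.77, SE 0.10, adjusted p 0.00029, scaled). On scaled values it also passed without LPS 1 (0.69, adjusted p 0.047) or high dose 1 (0.84, adjusted p 0.0014).

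The fits without the low-Cxcl2 libraries, chosen after the values were seen, moved other genes at the high dose too. As deposited, 1 of 9 rose, Bax (4.87% of all genes), and 1 fell, Sesn1 (-0.50, limma adjusted p 0.04, where 29.1% of all genes fell). Scaled, 3 of 9 rose (14.1% of all genes), namely Bax, Ccng1 (0.52, adjusted p 0.0078) and Mdm2 (0.31, adjusted p 0.029), while Sesn1 was at -0.20 (adjusted p 0.44).

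The other 5 genes gave high dose changes against LPS of -0.15 to -0.43 as deposited, where the median gene was at -0.27, and of -0.13 to 0.10 scaled. Mdm2 was at 36.61, 35.37, 45.81, 49.04 and 49.92 TPM in low dose lungs, at 41.47, 47.15, 48.95, 42.48 and 45.78 in mid dose lungs, and at 40.75, 44.01, 47.27, 34.84 and 43.45 in high dose lungs. Phlda3 ranged from 47.76 to 71.48, from 60.79 to 88.79 and from 58.37 to 69.65 TPM at the low, mid and high doses, and Eda2r from 0.75 to 1.51, 0.78 to 1.41 and 0.65 to 1.48 TPM. Mdm2, Phlda3 and Eda2r each overlapped LPS at every dose. No gene of the 9 passed a linear trend over the 4 extract concentrations on either scale (8.4% of all genes passed as deposited and 1.64% scaled). Among the 9 scaled trends the steepest was that of Bax, 0.33 per mg/mL (SE 0.13, limma adjusted p 0.18). Without high dose 1 the Bax trend passed as higher on deposited TPM, where 373 of the 17823 genes tested rose. The scaled trends of Bax (0.47, adjusted p 0.0077) and Ccng1 (0.24, adjusted p 0.015) also passed without that library. Without the low-Cxcl2 libraries the Bax trend passed as deposited (0.25, adjusted p 0.019, where 3.24% of all genes rose), and those of Bax (0.41, adjusted p 0.0022) and Ccng1 (0.27, adjusted p 0.032) passed scaled (9.9% of all genes rose).

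**Figure D3:**
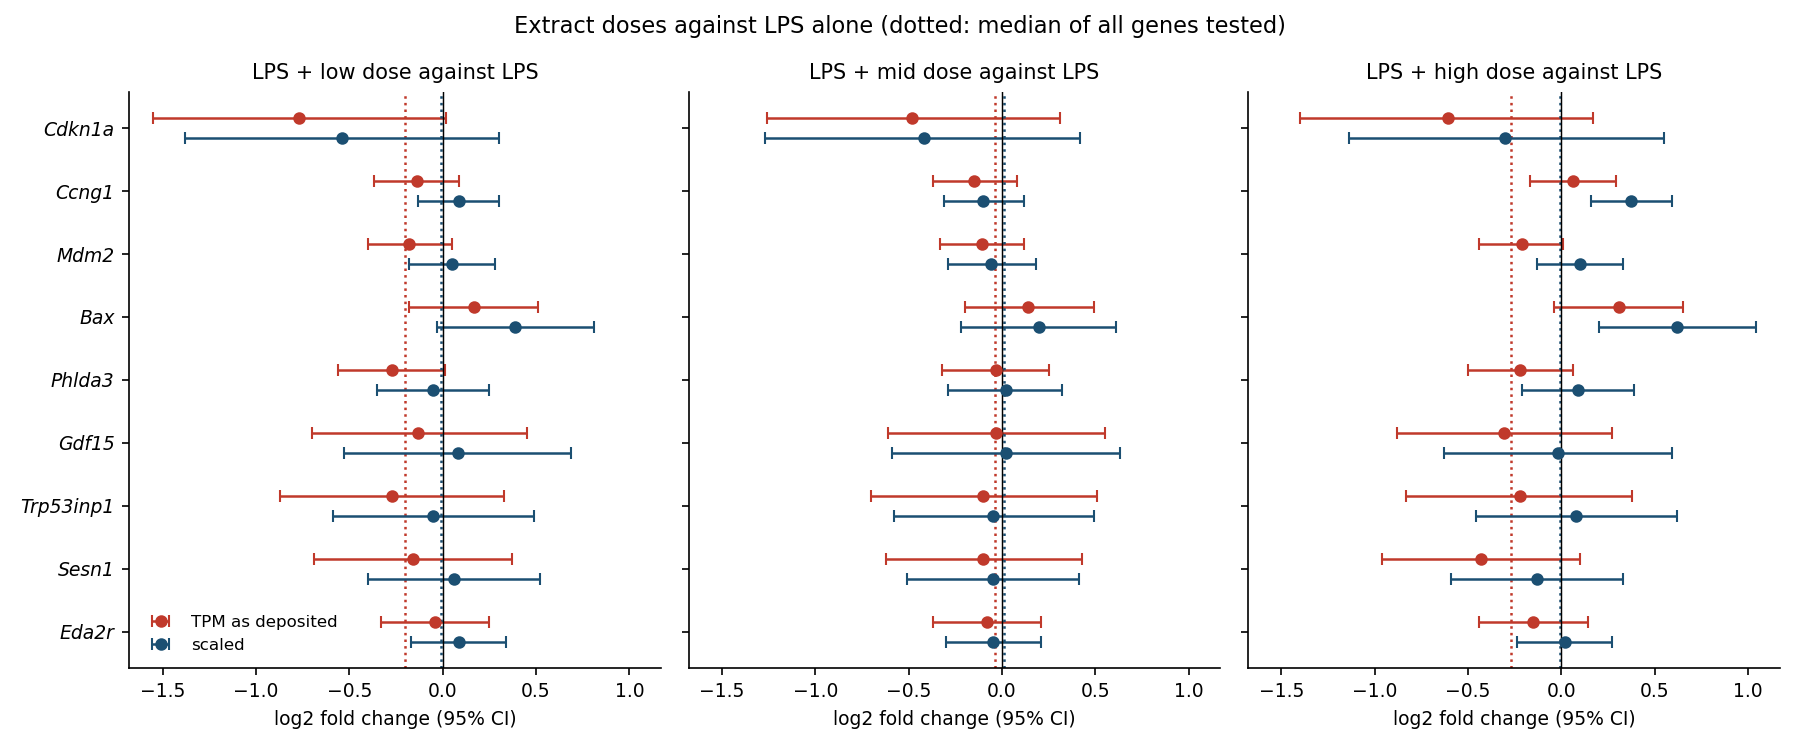
Log2 fold change of TPM + 1 against LPS alone with its 95% interval (horizontal axes) for each gene (vertical axis) at the low, mid and high extract dose (n = 5 each), on deposited TPM (red) and scaled TPM (blue). Dotted lines are the medians of all genes tested. Cdkn1a is below 0 with wide intervals at each dose, and scaled Ccng1 (0.37) and Bax (0.62) at the high dose have intervals above 0.

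Between doses, high against mid differed for 1 of 9 genes after scaling (7.83% of all genes), Ccng1, which was higher by 0.47 (SE 0.10, limma adjusted p 0.011). Every high dose library exceeded every mid dose library, as for 1.99% of all genes. On deposited TPM this difference was 0.21 (adjusted p 0.2), and 0 of 9 genes passed where 18.6% of all genes did. High against low gave 0 of 9 on both scales (0.00561% of all genes as deposited and 0.0281% scaled), and so did mid against low (0.00561% and 0%).

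Against saline, the extract groups kept Cdkn1a and Gdf15 raised. All 3 comparisons use the same 4 saline libraries as LPS against saline. Cdkn1a was higher by 2.29, 2.58 and 2.44 at the low, mid and high doses (limma adjusted p 0.00011, 1.4e-05 and 8.6e-05), and by 1.86, 1.98 and 2.11 scaled (adjusted p 0.0064, 0.0025 and 0.0052). Gdf15 was higher by 2.26, 2.36 and 2.08 (adjusted p 7.2e-06, 1.2e-06 and 2.4e-05), and by 2.03, 1.97 and 1.94 scaled. Both genes stayed past the threshold with any 1 library left out. In counts, 7, 6 and 6 of 9 genes rose at the low, mid and high doses on deposited TPM, where 44.4%, 53.3% and 37.5% of all genes did. None of the 9 fell, where 2.04%, 1.47% and 1.51% of all genes did. After scaling 2, 2 and 4 rose, where 13.1%, 14.2% and 9.42% of all genes did. The 4 at the high dose were Cdkn1a, Gdf15, Ccng1 (0.48, adjusted p 0.0083) and Bax (0.68, adjusted p 0.035), and Sesn1 fell there by 0.67 (adjusted p 0.049), where 9.09% of all genes were called lower (12.6% at the low and 14.1% at the mid dose). The Sesn1 and Bax calls held in 2 of the 9 fits that left out 1 library, those without high dose 1 or high dose 4 (adjusted p up to 0.14 and 0.11 in the others). Without high dose 1 scaled Phlda3 also passed (0.46, adjusted p 0.031). Trp53inp1 passed as lower without low dose 1 (-0.82), mid dose 1 (-0.78) or high dose 4 (-0.77) in the matching comparison, Sesn1 without mid dose 1 (-0.67), and Bax as higher without low dose 1 (0.57). Without the libraries of high Acta1, scaled Sesn1 at the high dose did not pass (-0.67, adjusted p 0.05 after rounding), nor did deposited Eda2r at the low dose (0.31, adjusted p 0.11, against 0.37 and 0.044 with them). With 1 library left out, that Eda2r call held only without saline 2 or low dose 4. It was also lost without a filter (limma adjusted p 0.083) and with only the compared groups (0.055).

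Without the low-Cxcl2 libraries Trp53inp1 and Sesn1 gave further calls below saline. As deposited, Trp53inp1 fell at the low dose (-0.41, limma adjusted p 0.043) and at the high dose (-0.72, adjusted p 0.0029), and Sesn1 at the high dose (-0.75, adjusted p 0.0012). That is 1, 0 and 2 of 9 genes at the low, mid and high doses, where 7.34%, 4.88% and 14% of all genes fell, while 7, 6 and 6 rose (46.7%, 53.4% and 38.8%). Scaled, both genes fell at every dose, by 0.82, 0.87 and 1.00 for Trp53inp1 and by 0.56, 0.76 and 1.04 for Sesn1 (adjusted p up to 0.0085), where 21.3%, 22.3% and 24.9% of all genes fell. In those scaled fits 3, 3 and 6 of the 9 genes rose, where 22.2%, 23.2% and 26.7% of all genes did. Bax was among them at each dose (0.57, 0.34 and 1.04), and Mdm2, Ccng1 and Phlda3 at the high dose.

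Sesn1 and Trp53inp1 varied together. Trp53inp1 was at 31.33, 21.41, 18.79, 22.03 and 14.02 TPM in low dose lungs, 29.87, 19.03, 27.76, 30.57 and 15.17 in mid dose lungs, and 34.68, 16.14, 15.88, 38.63 and 13.21 in high dose lungs. Sesn1 was at 27.27, 21.61, 18.84, 25.88 and 14.39 TPM in low dose lungs, 26.93, 17.64, 24.14, 28.2 and 16.06 in mid dose lungs, and 28.07, 13.61, 11.19, 26.77 and 13.35 in high dose lungs. In every challenged group the libraries of low Cxcl2 held the most of both genes. The 7 such libraries covered 29.87 to 41.68 TPM of Trp53inp1 and 26.77 to 37.91 TPM of Sesn1, above saline (23.8 to 26.7 and 20.26 to 24.32 TPM). The 13 libraries of high Cxcl2 covered 13.21 to 27.76 TPM and 11.19 to 25.88 TPM, mostly below it. On scaled TPM the low-Cxcl2 libraries (24.1 to 40.5 for Trp53inp1 and 22.3 to 29.9 for Sesn1) overlapped saline (31.5 to 36.9 and 27.5 to 31.4). The high-Cxcl2 libraries then lay below saline throughout, at 13.5 to 24.8 for Trp53inp1 and 12.1 to 25.7 for Sesn1. By group, both scaled genes were under every saline library in the low dose lungs (13.8% of all genes were) and in the mid dose lungs (15.2%), but neither comparison passed (limma adjusted p 0.061 to 0.12).

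**Figure D4:**
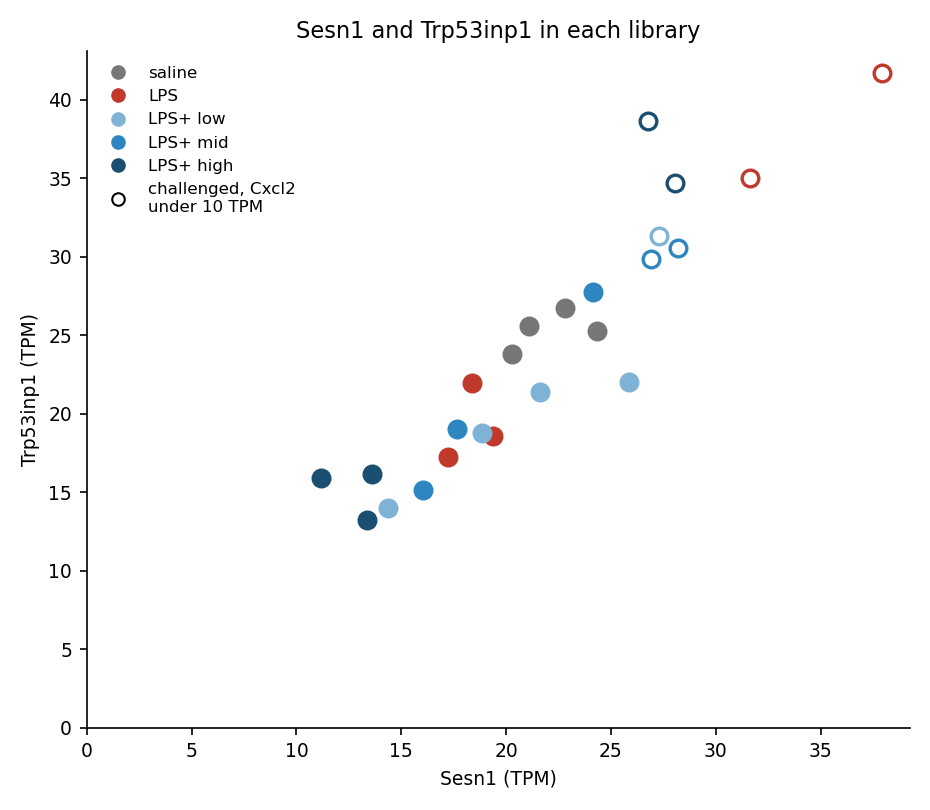
Sesn1 TPM (horizontal axis) against Trp53inp1 TPM (vertical axis) in each of the 24 libraries, coloured by group, with open circles for the 7 challenged libraries of Cxcl2 under 10 TPM. The open circles lie at 26.77 to 37.91 TPM of Sesn1 and 29.87 to 41.68 TPM of Trp53inp1, above the saline libraries, and most filled challenged libraries lie below saline.

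The 13 challenged libraries of high Cxcl2 come from every challenged group, were set apart after the data were seen, and were permuted without regard to group. Within them scaled Sesn1 and Trp53inp1 correlated with Pearson r 0.79 (permutation p 0.0014, adjusted over 36 pairs 0.051) and Spearman rho 0.87 (permutation p 0.00032, adjusted 0.012). Without the 2 libraries farthest from the median, r was 0.77. No other pair among the 9 genes passed after adjustment by either measure, including Cdkn1a with Gdf15 (r 0.47, permutation p 0.10, adjusted 0.41) and Cdkn1a with Mdm2 (r -0.30, permutation p 0.32, adjusted 0.79). The next highest were Ccng1 with Bax (r 0.75, permutation p 0.0033, adjusted 0.06) and Mdm2 with Bax (r 0.67, permutation p 0.013, adjusted 0.14). The libraries share groups and scaling factors.

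The genes most like each member over all 24 libraries, by Pearson r of scaled log2 values, are given as a description. Candidates were 14540 genes with names that are not predicted models. The scaled step from saline to LPS was 2.40 for Cdkn1a and 1.96 for Gdf15. It was 0.05 to 0.11 for Bax, Mdm2, Eda2r and Ccng1, 0.29 for Phlda3, -0.55 for Sesn1 and -0.65 for Trp53inp1. Scaled Sesn1 and Trp53inp1 lay below saline in the high-Cxcl2 libraries, while the low-Cxcl2 libraries overlapped saline. Cdkn1a was nearest to Rin1 (0.944), Lox (0.943) and Nfil3 (0.941), and Gdf15 to Lrrc59 (0.951), Tuba1c (0.944) and Mthfd2 (0.937). Bax was nearest to the proteasome subunit Psmb5 (0.969), Mif (0.963) and Tmed9 (0.957). Mdm2 was nearest to Kpna4 (0.877), the anti-apoptotic Mcl1 (0.876) and Traf6 (0.854), and Ccng1 to Prdx1 (0.832), Brix1 (0.825) and Csnk1a1 (0.825). Trp53inp1 was nearest to Btc (0.947), Sesn1 (0.932) and Rmnd5a (0.925), and Sesn1 to Trp53inp1, Pdcd4 (0.923) and Xcr1 (0.916). Phlda3 (Pusl1, 0.797) and Eda2r (Nmt2, 0.767) had the weakest nearest genes. The nearest member to Cdkn1a was Gdf15 (0.911), and those to Phlda3 and Eda2r were Bax (0.597) and Ccng1 (0.432).

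Trp53 itself, read at 17.52, 25.4, 21.74 and 20.43 TPM in saline lungs, was at 55.02, 57.09, 72.44, 70.46 and 68.78 TPM in LPS lungs. It rose by 1.56 (SE 0.15, limma adjusted p 7.3e-08) as deposited and by 0.92 (SE 0.15, adjusted p 0.00025) scaled, with no overlap on either scale. At the high dose Trp53 was lower than in LPS by 0.64 as deposited (37.55, 47.23, 48.05, 29.62 and 45.57 TPM, adjusted p 0.0038), and the scaled change of -0.33 did not pass (adjusted p 0.16). Of 16 tested genes of p53 and its regulators, 13 rose and 0 fell from saline to LPS, with a median of 0.75, where 56.2% of all genes rose and 1.86% fell. Scaled, 3 rose and 0 fell (13.8% and 14.2% of all genes): Trp53, the p53 kinase Hipk2 (1.23, adjusted p 0.0016) and the acetyltransferase Ep300 (0.68, adjusted p 0.0021).

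Other p53 targets, 31 genes, showed 23 that rose and 0 that fell as deposited (median 0.71; 56.2% and 1.86% of all genes), and 6 and 2 after scaling (median 0.15; 13.8% and 14.2% of all genes). Among the 6 were Gtse1 (0.85), Psrc1 (0.69), the exonuclease Aen (0.68) and the RNA-binding Zmat3 (0.58, limma adjusted p 0.0032), and the 2 that fell, chosen after their values were seen, were Dcxr (-1.01) and Apaf1 (-0.44). Gtse1 and Psrc1 are mitotic microtubule proteins. Of 17 cell cycle genes known to be repressed downstream of p21, 14 rose and 0 fell as deposited (56.2% and 1.86% of all genes) and 4 rose and 0 fell scaled (13.8% and 14.2%), led by the replication helicase subunits Mcm5 (1.36) and Mcm2 (0.99), with Mki67 (0.99) and Cdk1 (0.94, adjusted p 0.031). These stand beside a risen Cdkn1a, and their relation to it was not tested.

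Beside 56.2% of all genes that rose as deposited, and 13.8% that rose and 14.2% that fell scaled, the remaining lists read as follows. Of the 6 other inhibitors of cyclin-dependent kinases, 2 rose as deposited, and after scaling 0 rose and 2 fell, Cdkn1b (-0.51, limma adjusted p 0.018) and Cdkn2c (-0.65, adjusted p 0.0091), the latter named after its value was seen. Cdkn1c, the most abundant of the 6, changed by 0.27 (adjusted p 0.27) as deposited. Of 12 BCL-2 family genes besides Bax, 11 rose as deposited and 2 scaled, the pore former Bak1 (0.98, limma adjusted p 0.036) and the BH3 protein Bid (0.87, adjusted p 0.043), while 0 fell. Among 11 tested family relatives of the 9 genes, 7 rose as deposited, and scaled 2 rose (Bak1 and the stress-induced sestrin Sesn2, 0.39, adjusted p 0.048) and 1 fell (Cdkn1b). Sesn2 thus passed upward where Sesn1 did not. The gene lists share members, Bak1, Sesn2 and Cdkn1b among them, so their counts are not independent readings.

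ATF4 stress genes, a group known to include Gdf15, gave calls in 1 direction. All 10 rose as deposited (median 1.27; 56.2% of all genes), and 7 rose and 0 fell after scaling (median 0.70; 13.8% and 14.2% of all genes), among them the cystine transporter Slc7a11 (2.95, limma adjusted p 2.9e-05), Chac1 (0.89), Trib3 (0.89) and Nupr1 (0.88). Mean Slc7a11 was 0.19 ± 0.0337 TPM in saline (SD, n = 4) and 12.0 ± 6.55 TPM in LPS lungs (SD, n = 5). Against LPS, 7 of the 31 other p53 targets were lower and 0 higher at the low dose on deposited TPM (9.38% of all genes were called lower), and 8 were lower and 0 higher at the high dose (25.5%). On scaled TPM 0 passed at the low dose and 2 were higher at the high dose (5.67% of all genes), Apaf1 (0.52) and Dcxr (0.56), named after their values were seen.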

How the data were processed

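Lung RNA from 24 libraries was sequenced on an Illumina instrument after removal of ribosomal RNA, per the labels' protocols. The authors deposited TPM values to 2 decimals for 78298 genes (21883 without a symbol), as the file's values show; the submitters' processing notes name HISAT2, StringTie, RSEM, DESeq2 and build GRCm39, without roles or versions. No counts were used here, so read depth is unknown and count models were not run. The annotation used for names, lengths and promoter letters is of build GRCm38.p6. The 9 genes and all gene lists were chosen with earlier results of these data known. Genes of TPM 1 or more in at least 4 libraries (17823) were fitted as log2(TPM + 1), 1 mean per group over all libraries, with limma 3.58.1 in R 4.3.3 (trend and robust variance), Benjamini-Hochberg adjustment and a threshold of 0.05; scaled values were divided by median-of-ratios factors over the same genes. The fit was tested on simulated data. Named genes of other lists were up to 4 passing on both scales with the largest scaled change, otherwise the 2 most abundant. Permutation tests used 100000 draws. Same-numbered libraries were correlated after each gene's group mean was taken away. In no pair of groups did every such pair correlate above 0.1, so numbers were not taken as pairs. Alternatives were other scalings, filters, a pseudocount of 0.1, sample weights, length bins (median transcript length), only the compared groups, a replicate block and leaving out libraries. Limma p-values set each change against the spread between libraries within groups, pooled over the groups fitted and moderated across genes.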

Additional observations from a re-analysis of the deposited data

Results flagged for a closer look

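Ccng1 was singled out because the extract doses differed from each other in it: after scaling it was higher by 0.47 (SE 0.10, limma adjusted p 0.011) at the high dose than at the mid dose, with every high dose library above every mid dose library, while the deposited values gave 0.21 (adjusted p 0.2). In 45 sets of 1 gene in 1 group, 0 held a library far enough from the others to stand out by Dixon's test, where chance alone gives about 1 in 20. Group sizes of 4 and 5 leave that test little power.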

How the results depend on the processing

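Cdkn1a and Gdf15 against saline kept their direction and their call in every alternative tried; the low Cxcl2, high Acta1 and combined settings were added after seeing the data. For the other genes most calls changed with the scaling, and the cause was not tested. From saline to LPS (7 rose, 0 fell) median-of-ratios and upper-quartile scaling gave 2 that rose, length bins 2 and 1 that fell, scaled values without low Cxcl2 4 and 2, and without high Acta1 2. High dose against LPS (0 and 0) gave 1 that rose with median-of-ratios (Ccng1) and 1 with upper-quartile scaling (Bax, with Ccng1 lost), 1 and 1 with sample weights or without low Cxcl2, 2 with length bins and 3 scaled without low Cxcl2. Low dose against saline (7) gave 2 with either scaling, with length bins and scaled without high Acta1, 1 that fell without low Cxcl2, and 3 and 2 with both choices. Mid dose against saline (6) gave 2 with either scaling and scaled without high Acta1, 2 and 2 with length bins, and 3 and 2 scaled without low Cxcl2. High dose against saline (6) gave 4 with either scaling, which added 1 that fell, and 4 with length bins and scaled without high Acta1. It gave 6 and 2 with weights or without low Cxcl2, scaled or not. The trend (0) gave 1 and 1 with weights, 1 without low Cxcl2 and 2 when also scaled. The test of any difference (0) gave 1 with either scaling, length bins or scaled without high Acta1, and 2 with weights or without low Cxcl2. Leaving out 1 library gave 6 to 7 that rose for LPS, low and mid dose against saline, 6 for high dose, 0 to 1 for high dose against LPS and the trend, and 0 elsewhere.

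Some of the values below that turned sign had passed in the deposited fit. These were Bax and Eda2r in LPS against saline, and Ccng1 and Mdm2 in mid dose against saline. Mdm2 in mid dose against saline was -0.05 (upper quartile) and -0.02 (length bins), and reached -0.01 scaled with 1 library left out. Sesn1 from saline to LPS was -0.55 (median-of-ratios), -0.62 (upper quartile and length bins), -0.04 (weights), -0.26 (without low Cxcl2), -0.83 (also scaled) and -0.40 (scaled without high Acta1), and -0.07 to 0.20 with 1 library left out. Bax was -0.02 (upper quartile) and -0.10 (scaled without high Acta1), and Eda2r -0.26 (length bins) and -0.01 (scaled without low Cxcl2). Low dose against LPS, Ccng1 was 0.09, 0.07, 0.12, 0.13 and 0.01 with median-of-ratios, upper quartile, length bins, and scaled without low Cxcl2 or high Acta1. Gdf15 there was 0.08, 0.07, 0.07, 0.06 and 0.23 with median-of-ratios, upper quartile, length bins, and without low Cxcl2 unscaled and scaled, and -0.26 to 0.06 with 1 library left out. In the same order Gdf15 at the mid dose was 0.02, 0.01, 0.02, 0.06 and 0.09 (-0.16 to 0.11). At the high dose Gdf15 was 0.08 and 0.37 without low Cxcl2, unscaled and scaled, and Ccng1 -0.01 without high Acta1. Mid dose against saline, Ccng1 was -0.06 (upper quartile), -0.04 (length bins) and -0.03 (scaled without low Cxcl2).

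With a replicate block the counts stayed at 7 for LPS against saline and 0 against LPS at each dose, and low dose against saline gave 6, without Eda2r. With each gene's group mean taken away, same-numbered libraries correlated from -0.30 to 0.46 between LPS and mid dose. Between saline and mid dose they correlated from 0.05 to 0.14, each of the 4 best with its own number, a hint from the data and not the design. Without a filter, with a mean filter, with a pseudocount of 0.1, with only the compared groups and without high Acta1 the counts stayed within 1.5 times. Read depth is unknown, so TPM values near 1, as for Eda2r and saline Gdf15, carry an unknown counting error. With 4 or 5 libraries a group, intervals against LPS spanned over 1 log2 unit for Cdkn1a.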

Other observations

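At the high dose, 4 of 4 fibroblast markers and 4 of 5 endothelial markers were lower than in LPS lungs on deposited TPM, and 2 and 1 of them after scaling, by the limma test adjusted over all genes (25.5% of all genes were lower as deposited and 3.27% scaled). The summed fibroblast markers were at 393.12 to 709.24 TPM in LPS lungs and 230.47 to 308.03 TPM in high dose lungs. The p53 target genes Mdm2, Phlda3, Sesn1, Trp53inp1 and Eda2r had deposited changes of -0.15 to -0.43 in the same comparison without passing. The median gene was at -0.27 there, and of these 5 only Sesn1 lay below it. The part of these cell types in those values was not tested. Of 17 cell cycle genes, 7 fell at the high dose as deposited (median -0.62) and 0 after scaling (median -0.35), against the same shares of all genes, beside a Cdkn1a change of -0.61 that did not pass (adjusted p 0.23). Of 10 ATF4 stress genes, 2 fell as deposited, a share below the 25.5% of all genes, and 0 after scaling. Scaled Mdm2 and Bax, and Phlda3 and Bax, correlated over all 24 libraries with r of 0.599 and 0.597, far below Sesn1 with Trp53inp1 (0.932), as a description.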
